A study of Mus musculus with 40 samples.

Results

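Histone marks at 7 genes of thyroid hormone activation and response were described in mouse brown adipose tissue: the deiodinase genes Dio1, Dio2 and Dio3, the receptor genes Thra and Thrb, the responsive gene Thrsp and the transporter gene Slc16a10. The genes were selected by name from 21938 protein-coding genes on the standard chromosomes, and all 7 were found in the annotation. Wild type C57BL/6N mice, 8 in number and 20 weeks old, had been profiled by chromatin immunoprecipitation with sequencing for H3K4me3, H3K27ac, H3K4me1 and H3K27me3. Mice 1 and 2 were kept warm on normal chow (NCD), mice 4 and 5 were on NCD and held at 4 °C for 24 h, mice 7 and 8 were kept warm and given a high-fat diet (HFD), and mice 10 and 11 received both HFD and cold. The HFD began at 8 weeks of age and lasted 12 weeks. No gene was altered in any group. The labels abbreviate the depot as iBAT, which the methods spell out as interscapular, while the series text names an inguinal depot. Each library carries 1 mouse number, although by the wording of the methods an experiment may have joined the tissue of 2 mice. A group of 4 mice therefore measures the spread between these libraries.

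Thyroid hormone leaves the thyroid mostly as thyroxine, a prohormone. The deiodinase encoded by Dio2 converts it to triiodothyronine inside the cell, Dio1 does so mainly in liver and kidney, and Dio3 inactivates both forms. Triiodothyronine binds the nuclear receptors encoded by Thra and Thrb, which act with retinoid X receptors at response elements of genes such as Thrsp, and Dio2 is well known as a cold-induced, cAMP-responsive gene of brown fat. H3K4me3 marks active or poised promoters, H3K27ac active promoters and enhancers, H3K4me1 enhancers and H3K27me3 genes silenced by Polycomb.

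The libraries differed widely in how many peaks they yielded, and read depth is unknown because the lists hold no read counts. H3K4me3 lists held 13517 to 24104 peaks and H3K27ac lists 3224 to 40604, with the fewest for both marks in mouse 7. H3K4me1 lists of mice 7 and 10 held 12 and 18 peaks, so absence of this mark in them carries almost no information, and H3K27me3 lists ranged from 20 to 6428. Of 10 genes listed as brown adipocyte markers, the paper treats Pparg, Adipoq, Fabp4 and Elovl3 as common adipose markers, so the list does not mark brown fat alone. All 10 had a promoter H3K4me3 peak and a promoter H3K27ac peak in at least 1 mouse, as had 3 endothelial markers and Lep. In 8 mice, 6 of the 10 had H3K4me3 and 4 had H3K27ac. The hepatocyte marker Alb, the T cell marker Cd3e and the thyrocyte marker Tg had neither in any. Some markers of other tissues differed with diet. The white adipocyte marker Lep had promoter H3K4me3 and H3K27ac peaks in 4 of 4 NCD mice and 0 of 4 HFD mice, and of 4 skeletal muscle markers 1 to 2 had a promoter H3K4me3 peak in each NCD mouse and 0 in each HFD mouse, with Ckm and Myod1 at 0 in all and H3K27ac at none of the 4 in any mouse. Of 3 endothelial markers 2 to 3 had promoter H3K4me3 in each NCD mouse and 0 to 3 in each HFD mouse, of 4 macrophage markers 0 to 1 had it in mice of either diet, and of 2 smooth muscle markers 1 had it in each NCD mouse and 0 to 1 in each HFD mouse. Of the 10 genes of the brown adipocyte list, 8 to 10 had H3K4me3 in NCD mice and 8 to 9 in HFD mice. The part of these differences in the values by diet given for the thyroid hormone genes was not tested.

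Most of the 7 genes had a marked promoter. A promoter peak was one with its summit within 1000 bp of an annotated transcription start site (TSS). Dio2, Thra, Thrb, Thrsp and Slc16a10 had promoter H3K4me3 in 8 of 8 mice, as had 41.5% of all protein-coding genes. Dio2 and Thrsp also had promoter H3K27ac in 8 of 8 mice, which held for 3.11% of all genes. With every H3K27ac list cut to its 3224 strongest peaks, Thrsp kept the peak in 8 mice and Dio2 in 2, mice 7 and 11, and 1.47% of all genes had one in 8 mice. In the uncut lists Thra had it in 7 mice, all but mouse 7, and Thrb in 6, all but mice 7 and 10. Slc16a10 had it in 5, namely mice 1, 2, 5, 8 and 11. Dio1 had no promoter peak of any mark, and Dio3 had them only in mouse 5. H3K4me1 summits at these promoters were rare, in mice 4 and 5 at Thrsp and in mouse 11 at Thra, and H3K27me3 was called at none of them except Dio3. No gene of the 7 had a promoter peak in all mice of one temperature or diet and in none of the other, by Fisher's exact test, at any mark. Such complete differences by temperature were found at 0.0637% of 14128 genes with a promoter H3K4me3 peak in any mouse and 0.102% of 10785 genes with H3K27ac. By diet they were found at 0.177% and 0.13%. For H3K4me1 they made up 0% of 4084 genes by temperature and 0.0735% by diet, and for H3K27me3 0% of 1366 genes by either. The smallest two-sided p that 4 against 4 mice can give is 0.0286.

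Strength was compared within each library as a percentile. The percentile is the rank of the promoter peak among the peaks of its own list by −log10 q, the peak caller's significance, counted from the weakest, with tied peaks given their mean rank. By median over the mice with a peak, promoter H3K4me3 ranked Thrsp first at the 91.7th percentile, followed by Dio2 at 74.1, Thra at 73.9, Thrb at 68.3 and Slc16a10 at 66.8. For H3K27ac the order was Thrsp at 96.9, Thra at 82.1, Thrb at 70.2, Dio2 at 67.9 and Slc16a10 at 29.3. These medians rest on different mice. Over the 6 mice in which Thrb had a peak, Dio2 stood at 73.4 and Thrb at 70.2, so their order turned. The ranges of neighbours in both orders overlapped, but genes ranked in the same list are paired within a mouse. For H3K27ac, Thrsp stood above Thra, Thra above Thrb and Dio2 above Slc16a10 in every mouse with both peaks. The order of Thra and Thrb depended on the 1000 bp window. In mice 4 and 8 Thrb counted at 42.9 and 35.9. The region merged over the mice at its promoter held stronger peaks of these mice, at 67.8 and 66.0. Their summits lay too far from the TSS to count. The one of mouse 4 ranked above Thra, which stood at 56.9 in that mouse. The remaining neighbours in both orders changed places between mice. No test between genes was made.

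**Figure D1:**
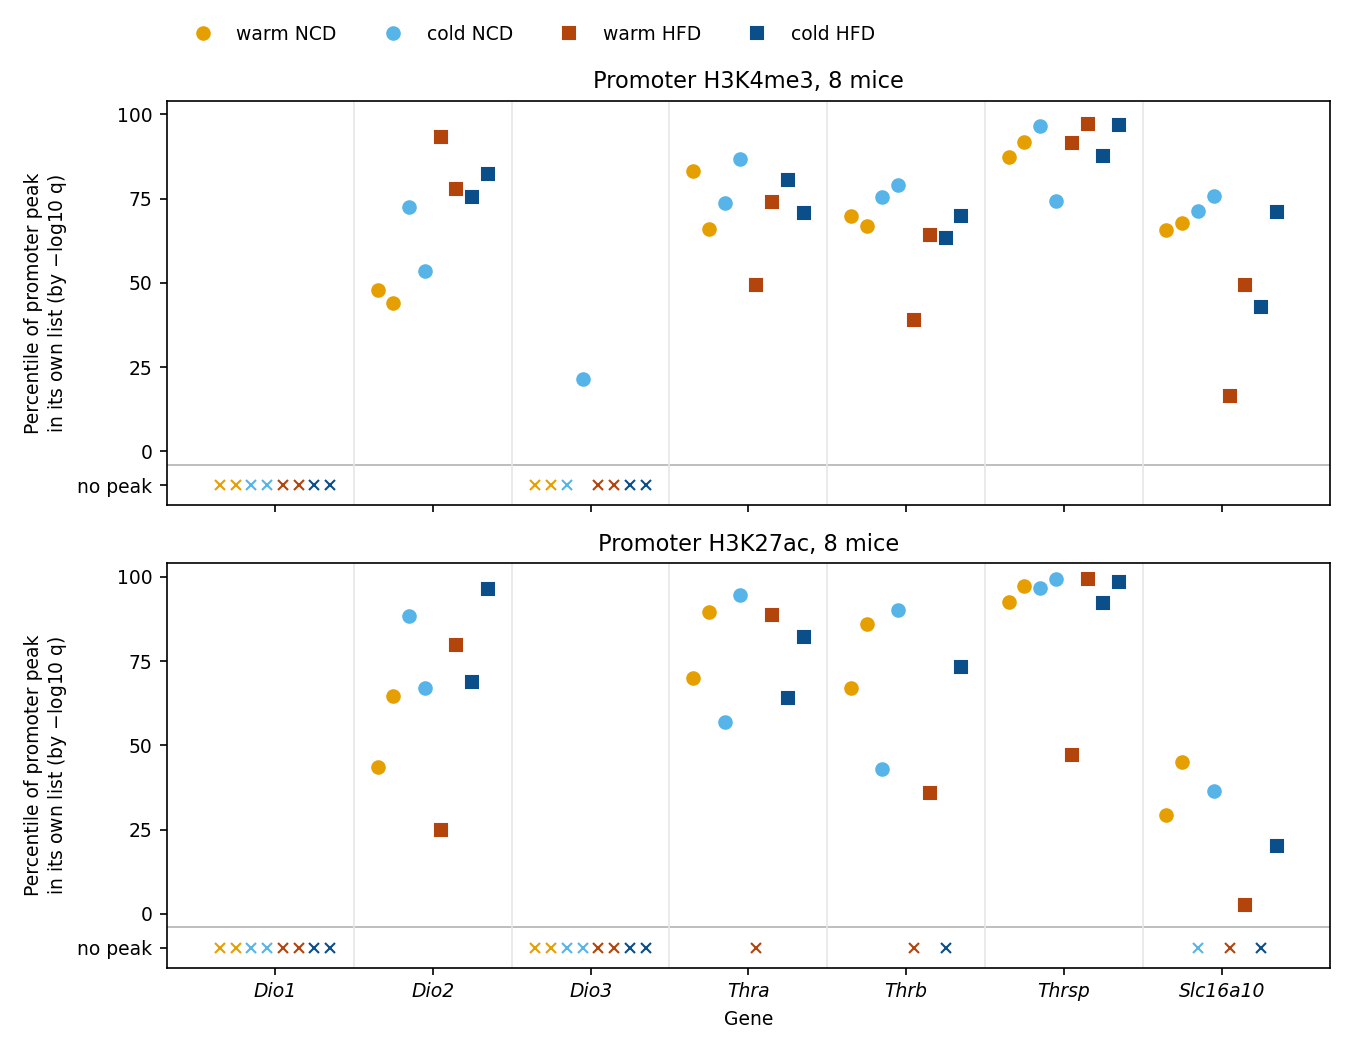
Percentile of the promoter peak in its own list, by −log10 q, for H3K4me3 (top) and H3K27ac (bottom) at each gene, with 1 symbol per mouse, circles for NCD, squares for HFD and crosses for no peak. The 4 HFD squares of Dio2 H3K4me3 sit between 75.5 and 93.3, above the 4 NCD circles at 44.0 to 72.6, and Dio1 has crosses only.

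Dio2, which encodes the activating deiodinase of brown fat, lies on the minus strand of chromosome 12 at 90724552 to 90738438. Its RefSeq start, at 90739038, is upstream of the TSS used for the peaks, and both lie under the H3K4me3 peaks of mice 1, 2, 5 and 11. The 250 bases before the RefSeq start (GRCm38.p6) are shown because they hold the cAMP response element, TGACGTCA, which begins 95 bases before the start. The TATA box, TATAAA, begins 30 bases before it, and capitals mark both.
Dio2 promoter, chr12:90739039-90739288, minus strand: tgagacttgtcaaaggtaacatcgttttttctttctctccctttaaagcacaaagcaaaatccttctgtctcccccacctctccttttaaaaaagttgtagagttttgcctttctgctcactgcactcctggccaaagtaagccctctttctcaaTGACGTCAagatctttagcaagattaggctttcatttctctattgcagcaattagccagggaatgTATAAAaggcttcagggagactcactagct
Searched on both strands, the letters TGACGTCA are in 1.55% and TATAAA in 12.4% of 32851 RefSeq promoters of this length, and a match is not evidence of a factor. The nuclear receptor half-site AGGTCA, a part of the thyroid hormone response element, does not occur in this window.

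Promoter H3K4me3 at Dio2 ranked higher in its list in HFD than in NCD mice. In the NCD mice 1, 2, 4 and 5 it stood at percentiles 47.8, 44.0, 72.6 and 53.6. In the HFD mice 7, 8, 10 and 11 it stood at 93.3, 77.9, 75.5 and 82.4. Every HFD mouse was above every NCD mouse, and cold NCD mouse 4 and cold HFD mouse 10 lay closest across that gap. The means were 82.3 ± 7.91 and 54.5 ± 12.7 (SD, n = 4 each), a difference of 27.8 percentile points with an exact permutation p of 0.0286. After Benjamini-Hochberg adjustment over 9106 genes the p was 0.63, the lowest that any gene reached by diet, so the difference did not pass. All genes separated by diet share this value, and a value under 0.05 would need most of the 9106 genes to separate. Groups that do not overlap by diet were found at 4.54% of these genes, 0.944% with HFD higher and 3.59% with HFD lower. The difference stayed between 24.1 and 33.8 with any 1 mouse left out, without overlap in each case, and was 25.6 without mice 7 and 10, whose lists were short. By fold enrichment in place of −log10 q the groups overlapped, while 3.29% of all genes separated. Mouse 4 then stood at 94.6, and mouse 8 was the lowest HFD mouse at 74.8. With every H3K4me3 list cut to its 13517 strongest peaks the groups did not overlap, and the difference was 47.1, while 4.52% of all genes then separated.

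The H3K4me3 peak at Dio2 was also broader in HFD mice. Its width was 1869, 1498, 1287 and 1259 bp in NCD mice 1, 2, 4 and 5 and 2116, 3321, 2832 and 5917 bp in HFD mice 7, 8, 10 and 11. The peak reached 608 to 1218 bp into the gene in NCD mice and 1556 to 4851 bp in HFD mice, with the longest reach in cold HFD mouse 11. On the log2 scale the widths differed by 1.17 (exact permutation p = 0.0286, adjusted p = 0.977 over 9106 genes). Groups of widths did not overlap by diet at 1.93% of genes, with HFD higher at 0.132% and lower at 1.8%. Width was tested after its values at Dio2 had been seen. The peak also covers the start of Gm26512, a noncoding gene transcribed in the opposite direction from within Dio2, so marks of the 2 promoters cannot be told apart.

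**Figure D2:**
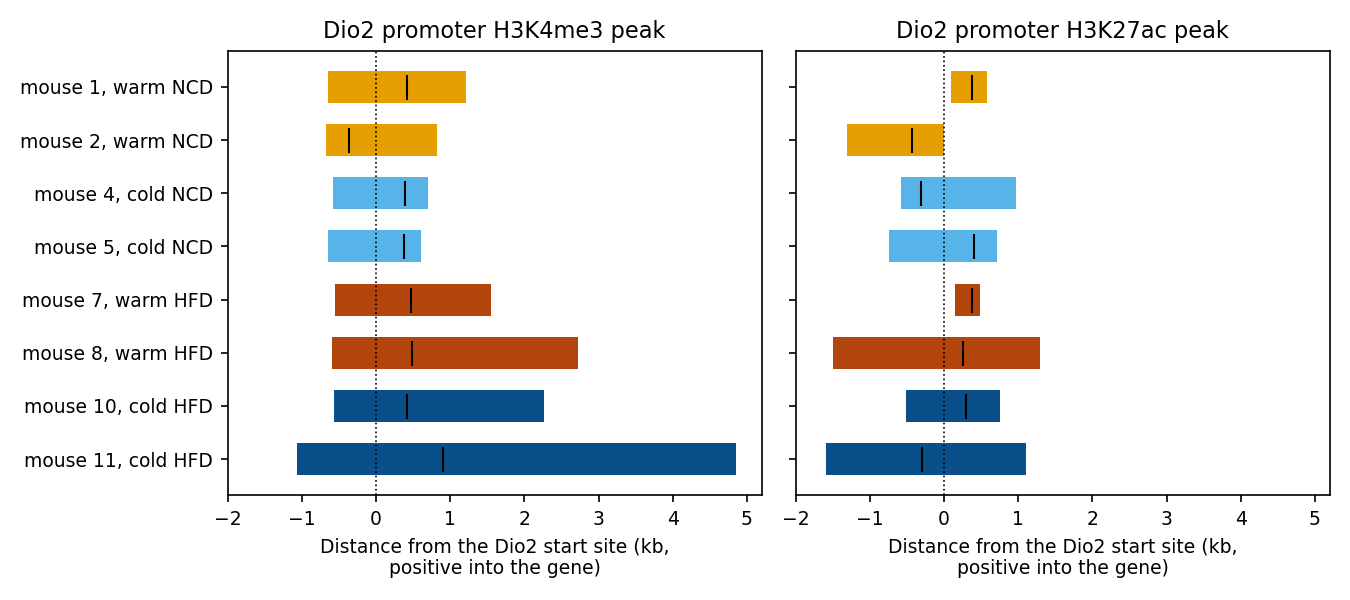
Extent of the promoter peak at Dio2 in each mouse for H3K4me3 (left) and H3K27ac (right), as distance from the Dio2 TSS in kb, positive into the gene; the tick is the summit and colours are the 4 conditions. H3K4me3 bars of the HFD mice reach 1556 to 4851 bp into the gene, and those of the NCD mice 608 to 1218 bp.

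Promoter H3K27ac percentiles at Dio2 overlapped between cold and warm mice. In the warm mice 1, 2, 7 and 8 it stood at percentiles 43.5, 64.7, 24.97 and 79.8. In the cold mice 4, 5, 10 and 11 it stood at 88.5, 66.97, 68.9 and 96.3. Mouse 8, on HFD, overlapped the cold mice. The means were 80.2 ± 14.5 in cold and 53.2 ± 24.0 in warm mice (SD, n = 4 each), a difference of 26.9 with an exact permutation p of 0.114 and an adjusted p of 0.991. The difference was 17.5 without mouse 7. Without mouse 8 it was 35.8 and the groups did not overlap, as at 7.74% of genes with that mouse left out. With all mice, at 3.81% of 682 genes with this mark in all mice the groups did not overlap by temperature, 3.67% with cold higher. By diet the Dio2 means were 67.5 ± 30.5 in HFD and 65.9 ± 18.4 in NCD mice (SD, n = 4 each, exact permutation p = 0.943), and 3.37% of genes did not overlap. H3K4me3 at Dio2 stood at 71.0 ± 12.3 in cold and 65.8 ± 23.8 in warm mice (SD, n = 4 each, exact permutation p = 0.743), where 5.39% of genes did not overlap.

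Dio2 had no steady distal element. Distal regions were unions of overlapping peaks over the mice with every summit more than 1000 bp from any TSS, in the gene body and 30 kb each side. The Dio2 window held 6 with H3K27ac, 5 of them in 1 mouse each and none in 6 or more mice. The region farthest into the 3′ flank, chr12:90717656-90718303, had a peak in 3 mice. Numbers of distal peaks, here and below, count each peak by its own summit, more than 1000 bp from any TSS. Such a peak can thus belong to a region that is not distal. The number of distal H3K27ac peaks was 0, 0, 1 and 0 in NCD mice 1, 2, 4 and 5, and 0, 2, 0 and 5 in HFD mice 7, 8, 10 and 11. Cold HFD mouse 11, which had the longest list of this mark, stood highest. No distal region of H3K4me3 or H3K4me1 and no H3K27me3 was called there.

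The other deiodinase genes had few marks. Dio1, on chromosome 4 at 107291465 to 107307169, had 0 of 8 mice with a promoter peak at each mark and no distal region in its window. The marked site there was the promoter of the neighbour Yipf1, which had H3K4me3 in 8 mice, H3K27ac in 3 and H3K4me1 in 1. Dio3, a gene at 110279068 to 110281097 on chromosome 12, had peaks in cold NCD mouse 5 alone. That mouse had an H3K4me3 peak at the 21.4th percentile of its list, with its summit 46 bp upstream of a TSS, and an H3K27me3 peak at the 81.3rd percentile, 686 bp downstream. A further H3K27me3 peak lay 5246 bp downstream. Mouse 5 had the longest H3K27me3 list, 6428 peaks, so its being alone cannot be read as a difference between mice.

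Thra encodes the receptor that predominates in many tissues outside the liver, and lies on chromosome 11 at 98740638 to 98769006. Its promoter H3K4me3 stood at percentiles 83.1, 66.0, 73.8 and 86.8 in NCD mice 1, 2, 4 and 5 and at 49.5, 74.0, 80.6 and 70.6 in HFD mice 7, 8, 10 and 11, and the groups overlapped. Cold mice stood at 77.9 ± 7.21 and warm mice at 68.1 ± 14.3 (SD, n = 4 each, exact permutation p = 0.286). Promoter H3K27ac, absent in mouse 7, ranged from 56.9 in mouse 4 to 94.5 in mouse 5, which share the same condition.

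The Thra window was among the richest in distal H3K27ac of all genes. It held 12 such peaks per mouse on average, or 13.6 per 100 kb, above 99.8% of 11929 genes with a distal peak in their window. The count includes the flank shared with Nr1d1, which encodes the clock repressor REV-ERBα, and Msl1. Within introns of Thra, 4 regions had peaks in 7 of 8 mice, all but mouse 7. They lay 4665, 6014, 8980 and 13480 bp downstream of the TSS. The last, chr11:98753617-98755603, was the strongest, at percentiles 62.9 to 96.4. Beyond the gene, a region in an intron of Nr1d1 and an intergenic region 44521 bp from the Thra TSS, chr11:98782270-98789706, had peaks in 8 of 8 mice at percentiles 93.4 to 99.9 and 91.2 to 99.5. These flank regions are nearer to the start sites of Nr1d1 and Msl1 than to that of Thra. H3K4me1 peaks lay in 6 mice in each of 3 distal regions, 6202, 9780 and 42528 bp downstream. The mice without them were 7 and 10, whose lists of this mark were nearly empty. Distal H3K4me3 had 3 regions in 7 or more mice, all between Nr1d1 and Msl1, the strongest at percentiles 22.3 to 70.2.

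Distal H3K27ac peaks near Thra numbered 9, 9, 7 and 14 in warm mice 1, 2, 7 and 8, and 14, 15, 12 and 16 in cold mice 4, 5, 10 and 11. Mouse 8 overlapped the cold mice. The means were 14.2 ± 1.71 in cold and 9.75 ± 2.99 in warm mice (SD, n = 4 each), a difference of 4.50 peaks with an exact permutation p of 0.0857 and an adjusted p of 1. At 1.06% of genes the groups did not overlap by temperature, 1.02% with cold higher. The difference was 5.92 without mouse 8, with no overlap, as at 4.97% of genes with that mouse left out, but its direction turned when the number was taken per 10000 peaks of the list (−3.16) or from lists cut to the 3224 strongest peaks (−0.50).

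Thrb, the receptor gene that predominates in liver and the pituitary, spans 17660261 to 18038090 on chromosome 14. It has 2 start sites among the transcripts of the annotation used, both downstream of the first base of that span. The upstream one, at 17660896, had H3K4me3 in 8 mice and H3K27ac in 6. The downstream one, at 17981529, had no summit of any mark within 1000 bp in any mouse. The sequences before both starts are shown to compare them. Capitals mark the nuclear receptor half-site AGGTCA in the first and TATAAA in the second. These letters are in 14.0% and 12.4% of RefSeq promoters over 250 bases, a longer window than the 182 and 135 bases shown. Both end where an annotated transcript begins, since bases inside a transcript's exons are not printed.
Thrb upstream promoter, marked, chr14:17660710-17660891, plus strand: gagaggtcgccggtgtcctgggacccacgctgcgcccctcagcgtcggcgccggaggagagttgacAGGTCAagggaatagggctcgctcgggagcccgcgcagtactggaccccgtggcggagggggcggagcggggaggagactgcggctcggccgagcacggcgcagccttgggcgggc
Thrb downstream promoter, unmarked, chr14:17981394-17981528, plus strand: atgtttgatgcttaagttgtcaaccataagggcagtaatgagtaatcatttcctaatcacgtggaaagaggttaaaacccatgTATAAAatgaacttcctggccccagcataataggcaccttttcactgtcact
At the upstream start H3K4me3 stood at percentiles 69.8, 66.9, 75.6 and 79.0 in NCD mice 1, 2, 4 and 5 and at 39.1, 64.3, 63.3 and 69.9 in HFD mice 7, 8, 10 and 11. The NCD mice lay close together, and mouse 11 alone kept the groups from separating. The means were 59.1 ± 13.7 in HFD and 72.8 ± 5.48 in NCD mice (SD, n = 4 each, exact permutation p = 0.0857), and the difference of −13.7 became −6.99 without mouse 7 and −17.3, with no overlap, without mouse 11. By temperature the means were 71.95 ± 6.88 in cold and 60.0 ± 14.2 in warm mice (exact permutation p = 0.171, n = 4 each), and the difference of 11.9 became 4.94 without mouse 7 and 14.8, with no overlap, without mouse 10. With mouse 11 left out 14.8% of all genes separated by diet, and with mouse 10 left out 11.5% separated by temperature. The Thrb window held 13 distal H3K27ac regions, 2 of them in 6 mice and both intronic, at 93298 bp downstream of the marked TSS and 117261 bp upstream of the unmarked one. Distal H3K27ac peaks there numbered 2, 12, 10 and 10 in NCD mice 1, 2, 4 and 5 and 0, 16, 0 and 10 in HFD mice 7, 8, 10 and 11. A distal H3K4me3 region 27977 bp upstream had peaks in 7 mice.

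Thrsp, a lipogenic gene long used as a readout of thyroid hormone, lies on chromosome 7 at 97412938 to 97417730 and had the highest promoter percentiles of the 7 by median. Its H3K4me3 stood at percentiles 87.4, 91.8, 96.6 and 74.4 in NCD mice 1, 2, 4 and 5 and at 91.6, 97.0, 87.8 and 96.8 in HFD mice 7, 8, 10 and 11. Its H3K27ac stood at 92.7, 97.2, 96.7 and 99.3 in those NCD mice and at 47.3, 99.3, 92.4 and 98.6 in those HFD mice. In mouse 5 Thra, Thrb and Slc16a10 ranked above it for H3K4me3, and in mouse 7 Dio2 did. Only mouse 7 was below 90 for H3K27ac. In that mouse the peak was 237 bp wide, and in the other 7 it was 1663 to 7858 bp wide. The merged region at this promoter held a stronger peak of mouse 7, at percentile 64.8, whose summit lay too far from the TSS to count. Neither factor separated the groups. H3K27ac means were 96.7 ± 3.13 in cold and 84.1 ± 24.7 in warm mice (exact permutation p = 0.514, n = 4 each), and H3K4me3 means were 93.3 ± 4.46 in HFD and 87.6 ± 9.54 in NCD mice (exact permutation p = 0.257, n = 4 each). The H3K27ac peaks of mice 2, 5 and 11 also ran 2391 to 4069 bp upstream of the TSS. The window held 5 distal H3K27ac regions, none in 6 or more mice, and 2 to 5 distal peaks per mouse. In mice 1, 7 and 10 none of those peaks lay in a distal region. The promoter of the neighbour Ndufc2 had H3K4me3 in 8 mice and H3K27ac in 7.

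Slc16a10 encodes a transporter of aromatic amino acids and thyroid hormone and spans 40033532 to 40142258 on chromosome 10. Its promoter H3K4me3 stood at percentiles 65.8, 67.8, 71.3 and 75.8 in NCD mice 1, 2, 4 and 5 and at 16.3, 49.2, 43.0 and 71.2 in HFD mice 7, 8, 10 and 11. Mouse 11 was the single HFD mouse in the NCD range. The means were 44.9 ± 22.6 in HFD and 70.1 ± 4.37 in NCD mice (SD, n = 4 each, exact permutation p = 0.0857). The difference of −25.2 points became −15.7 without mouse 7. It became −34.0 without mouse 11 and −22.4 with lists cut to the shortest, and in both of these cases the groups did not overlap, as at 14.8% and 4.52% of all genes. By temperature the groups overlapped with means of 65.3 ± 15.0 in cold and 49.8 ± 23.8 in warm mice (SD, n = 4 each, exact permutation p = 0.314), a difference of 15.5 that became 4.36 without mouse 7. Without mouse 10 it was 22.9 and the groups did not overlap, as at 11.5% of genes. Promoter H3K27ac was low where present, at 29.3, 45.0, 36.3, 2.72 and 20.3 in mice 1, 2, 5, 8 and 11.

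The strongest H3K27ac of Slc16a10 lay inside the gene and not at its promoter. A region 83187 bp downstream of the TSS, chr10:40057180-40059874, had peaks in 8 of 8 mice at percentiles 88.9 to 99.6. A second, 65061 bp downstream at chr10:40076070-40078841, had them in 8 mice at 47.3 to 97.6. In each of the 5 mice with a promoter H3K27ac peak, both intronic regions ranked above it. Further intronic regions, 72657 and 48250 bp downstream, were found in 6 and 7 mice, and another distal region, in an intron of the neighbour Mfsd4b1, in 6. Distal H3K27ac peaks numbered 8, 16, 11 and 15 in NCD mice 1, 2, 4 and 5 and 2, 16, 7 and 13 in HFD mice 7, 8, 10 and 11. At 6.52 per 100 kb the window stood above 94.9% of genes.

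One intronic H3K27ac region of Slc16a10 differed completely by diet. The region chr10:40107367-40108808, 33828 bp downstream of the TSS, had a peak in NCD mice 1, 2, 4 and 5 at percentiles 8.11, 64.5, 56.9 and 75.6, and in none of the 4 HFD mice. Fisher's exact test gave p = 0.0286, and the adjusted p was 1 over 47510 H3K27ac regions. Regions with peaks in all NCD and no HFD mice made up 0.0884% of these. One of its summits lies within 1000 bp of the start of Gm25613, a small nucleolar RNA gene, so it was not counted as distal, and it was singled out after its values were seen. The HFD lists include the shortest, 3224 peaks in mouse 7, and the longest, 40604 in mouse 11. The promoter and the reference bases around the centre of 2 regions are shown. Capitals in the promoter mark CCAAT and its reverse complement ATTGG, letters found in 33.8% of RefSeq promoters over 250 bases.
Slc16a10 promoter, chr10:40142259-40142504, minus strand: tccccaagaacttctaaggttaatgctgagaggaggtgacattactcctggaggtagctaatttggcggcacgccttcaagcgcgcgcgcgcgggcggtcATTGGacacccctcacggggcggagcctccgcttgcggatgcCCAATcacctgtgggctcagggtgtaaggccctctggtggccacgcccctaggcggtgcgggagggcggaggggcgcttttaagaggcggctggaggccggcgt
Slc16a10 intronic region in 8 mice, chr10:40058967-40059167, plus strand: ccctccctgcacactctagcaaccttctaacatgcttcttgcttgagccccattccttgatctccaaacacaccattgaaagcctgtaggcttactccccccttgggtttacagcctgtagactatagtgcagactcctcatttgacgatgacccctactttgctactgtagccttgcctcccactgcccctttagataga
Slc16a10 intronic region in NCD mice, chr10:40108326-40108526, plus strand: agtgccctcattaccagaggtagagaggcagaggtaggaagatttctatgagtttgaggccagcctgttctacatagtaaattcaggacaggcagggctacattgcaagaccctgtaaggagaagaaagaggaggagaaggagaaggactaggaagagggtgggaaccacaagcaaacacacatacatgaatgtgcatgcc
Neither regional sequence, 201 bases around the median summit, held the nuclear receptor half-site, the cAMP response element, the CCAAT box or the TATA box, in the letters given above, on either strand. The direct repeat of the half-site known as DR4 was in none of the sequences shown.

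**Figure D3:**
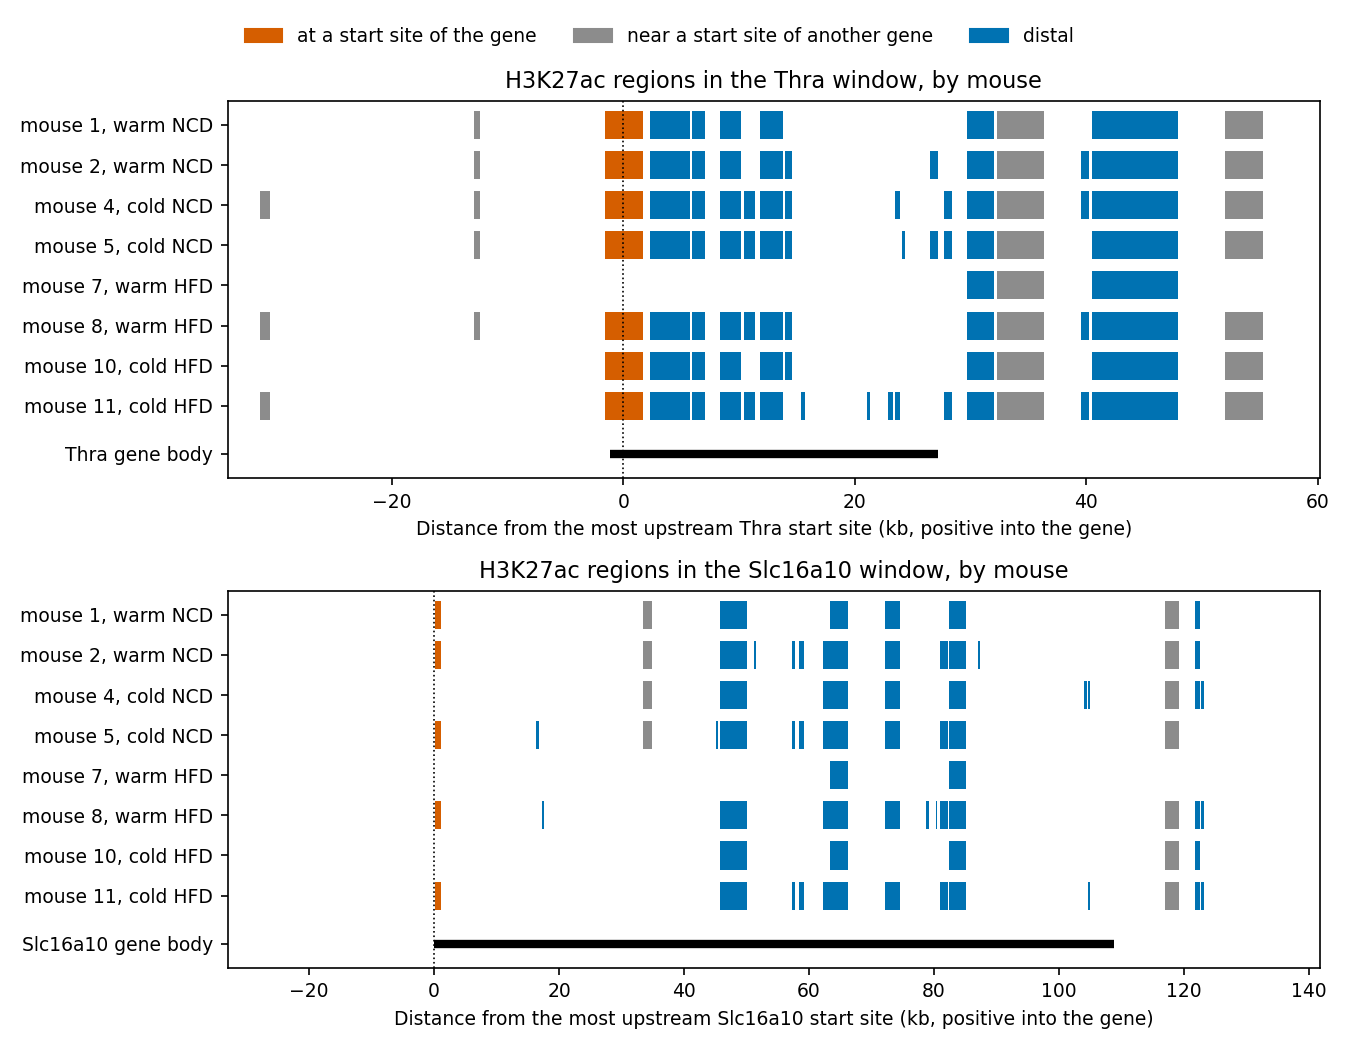
H3K27ac regions in the windows of Thra (top) and Slc16a10 (bottom), with 1 row per mouse and distance from the most upstream TSS in kb. A box is the whole region and is drawn in each mouse with a peak in it, coloured by whether it is at the gene's own start site, near that of another gene or distal; in the Slc16a10 map the grey box 33828 bp into the gene is present in the 4 NCD mice only.

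Over the 7 windows, 59 distal H3K27ac regions were found, 13 of them in 6 or more mice, which is 22.0% against 15.6% of all 33328 distal regions. Thra held 16, Thrb 13, Slc16a10 19, Dio2 6 and Thrsp 5. By Fisher's exact test none of the 59 was in all mice of one temperature or diet and none of the other. Among all distal regions that held for 0.396% by temperature and 0.09% by diet. Likewise none of 18 distal H3K4me3 regions (0.295% and 0.907% of all), 75 H3K4me1 regions (0% and 0.124%) or 1 H3K27me3 region (0% and 0.0619%) differed so. Leaving out 1 mouse gave at most 2 such regions of a mark, for H3K4me3 by temperature without mouse 10, where 2.76% of all distal regions of this mark did so. The number of distal H3K27ac peaks separated the groups at no gene of the 7, against 1.06% of 11929 genes by temperature and 0.134% by diet. Of the distal H3K27ac peaks in the windows, 38.5%, 43.6%, 64.3% and 39.6% overlapped an H3K4me1 peak of the same mouse in mice 2, 4, 5 and 8, and 9.52% and 20.8% in mice 1 and 11. None did in mice 7 and 10. Over the genome the shares were 41.2%, 28.4%, 46.5% and 24.0% in mice 2, 4, 5 and 8 and 3.08% and 11.2% in mice 1 and 11. The shares in the windows were thus higher in 5 of these 6 mice and lower in mouse 2, with no test made. The Thra window, with its Nr1d1 flank, stood above the genome in each of these mice. Its shares were 22.2%, 77.8%, 71.4%, 80.0%, 50.0% and 43.8% in mice 1, 2, 4, 5, 8 and 11. Slc16a10 stood above the genome only in mice 5, 8 and 11, Thrb only in mice 5 and 8, Thrsp only in mice 4 and 5, and Dio2 in none.

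**Figure D4:**
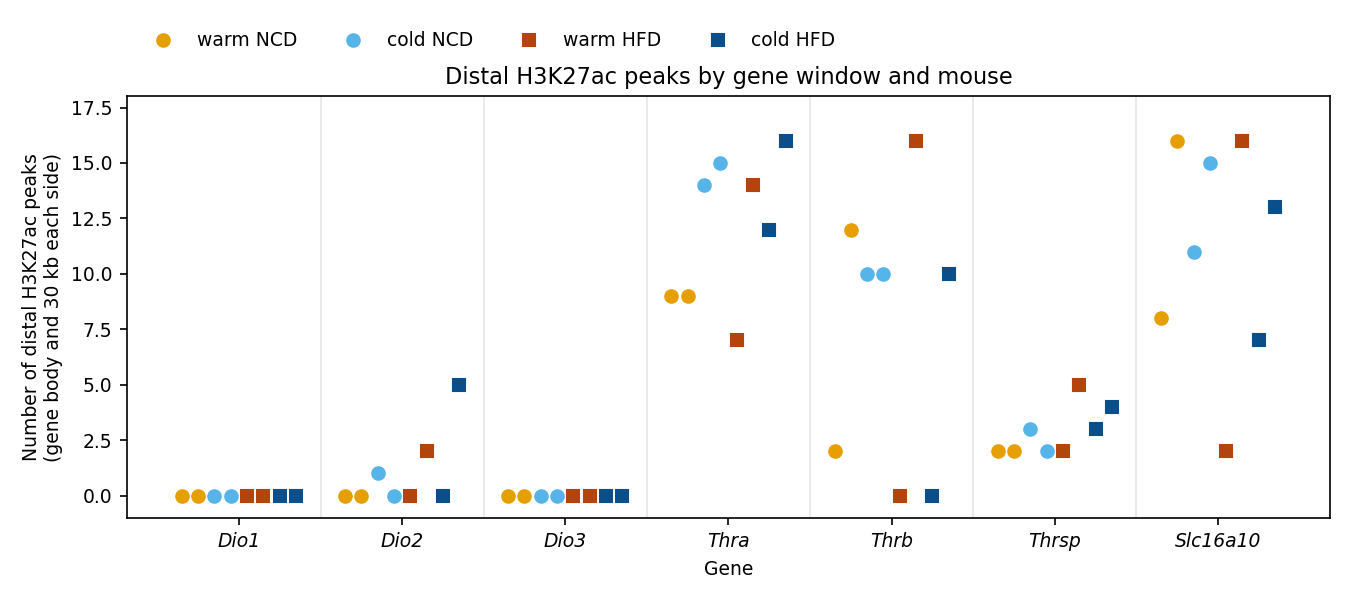
Number of distal H3K27ac peaks, each counted by its own summit, in the body and 30 kb flanks of each gene. There is 1 symbol per mouse, circles for NCD and squares for HFD. Thra ranges from 7 to 16 and Slc16a10 from 2 to 16, Dio1 and Dio3 are at 0, and mouse 7 is lowest at Thra and Slc16a10.

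No gene of the 7 showed a cold effect on rank that separated by diet: in the interaction, a comparison of mice 1, 2, 10 and 11 with mice 4, 5, 7 and 8, the groups overlapped at all 5 genes tested for H3K4me3 and both tested for H3K27ac. They did not overlap at 2.28% of 9106 genes and 1.03% of 682 genes. The percentiles of the 2 marks could be compared at Dio2 and Thrsp, which had both in all mice. At Dio2 H3K4me3 stood at 68.4 ± 17.8 and H3K27ac at 66.7 ± 23.3 (SD, n = 8 each, exact permutation p = 0.873). At Thrsp the means were 90.4 ± 7.55 and 90.4 ± 17.7 (SD, n = 8 each, exact permutation p = 1). An adjusted p under 0.05 was reached by 18.7% of 637 genes. The genes nearest to Dio2 in percentile over the 16 H3K4me3 and H3K27ac libraries were Ndst1, Gatad2b and Tgfb1i1, with mean absolute differences of 9.54, 9.91 and 10.1 points. Thrsp was nearest to Hexim2 (3.74), Thra to Tmem126a (5.16), Thrb to Ankrd50 (6.84) and Slc16a10 to Pag1 (4.85).

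Most genes of the wider pathway had promoter H3K4me3. Of 42 genes of thyroid hormone transport, signalling and response, 26 (61.9%) had it in 8 mice, beside 41.5% of all genes, and 36 (85.7%) in at least 1, beside 64.4%. Promoter H3K27ac was found in at least 1 mouse at 31 (73.8%), beside 49.2% of all genes, and in 8 mice at 2 (4.76%), beside 3.11%. None had H3K27me3. The receptor partners Rxra, Rxrb and Rxrg all had H3K4me3 in 8 mice and H3K27ac in 6 to 7. The transporter genes Slc7a5 and Slc7a8 had H3K4me3 alone in 6 and 7, and Slco1c1 had neither. All 4 genes of selenoprotein synthesis, which deiodinases need, had H3K4me3 in 8 mice, and the TSH receptor gene Tshr had it in 8 and H3K27ac in 2. Of the 26 genes with H3K4me3 in all mice, 2 had groups that did not overlap by temperature, beside 5.39% of all genes, and 1 by diet, beside 4.54%. By temperature these were the coactivator gene Crebbp, at 83.2 to 86.8 in cold and 55.1 to 83.1 in warm mice, and March6, a ligase gene for DIO2 degradation, at 76.4 to 91.3 and 37.1 to 72.7. By diet it was the corepressor gene Hdac3, at 89.7 to 95.9 in HFD and 68.2 to 87.1 in NCD mice. None passed adjustment over all genes, which would have needed most genes to separate.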

How the data were processed

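The 32 peak lists of 8 mice and 4 marks were used, and the 8 inputs entered only through them. According to the methods, the authors trimmed reads with cutadapt, aligned them to GRCm38 with bowtie2 and called peaks per library with macs2 against the corresponding input, whose versions and thresholds were not given in the sources used here. Each value is kept in the unit that macs2 wrote. The deposited fold enrichment is a ratio of ChIP signal to local background, and the deposited −log10 p and −log10 q come from the caller. The lowest −log10 q in any list was 1.30. The deposited display score and summit offset served only to read the lists. Genes were those of GENCODE M21 basic, and no peak passed a chromosome end of the 21 reference chromosomes compared. Coordinates are 1-based.

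Percentiles were ranks of −log10 q within a list, ties sharing the mean rank, computed with Python 3.11.15 and numpy 2.4.6. Percentiles were tested by two-sided exact permutation over 70 assignments of 4 and 4 mice, presence by two-sided Fisher's exact test (scipy 1.17.1), and p-values were adjusted by Benjamini-Hochberg over all genes or regions. A call was a complete separation of the groups, which is equivalent to the smallest p, 0.0286. From that p, an adjusted p under 0.05 is reached only if most of the genes or regions tested separate. Adjusted values of 4 against 4 mice therefore cannot single out a gene or region. Marks were compared over 12870 assignments. Libraries of the 4 marks share mouse numbers, so the marks were treated as paired by number. A number may stand for the tissue of 2 mice. Deviations of the 2 marks correlated at r of 0.105 to 0.391 within all 8 mice over 637 genes. A test within mouse numbers over 256 sign flips was also made. Scripts were tested on simulated data. Promoter sequences were matched by symbol for 6 of the 7 genes and come from RefSeq. Region sequences come from the GRCm38.p6 reference.

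The genes, lists and tests were chosen with earlier results of these data known. The named genes were the 7 genes, the pathway list, distal regions in 6 or more mice or separating by group, neighbours sharing a window and the nearest genes by percentile.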

Additional observations from a re-analysis of the deposited data

Results flagged for a closer look

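A highest or lowest mouse stood apart by Dixon's ratio in 12 of 70 groups of 4 or 8 mice tested over the promoter percentiles and the distal H3K27ac numbers, and chance flags about 1 in 20 groups. For promoter H3K27ac of Thrsp, mouse 7 stood apart at percentile 47.3 among all mice, among warm mice and among HFD mice. A stronger peak of that mouse in the same region, at percentile 64.8, did not enter. For promoter H3K4me3, mouse 7 stood apart at Thrb with 39.1 and mouse 5 at Thrsp with 74.4 among all mice, and mouse 10 at Slc16a10 with 43.0 among cold mice. In number of distal H3K27ac peaks, mouse 11 stood apart at Dio2 with 5 among all mice. Mouse 8 stood apart among warm mice at Dio2 with 2 and at Thrsp with 5. Mouse 4 stood apart among NCD mice at Dio2 with 1 and at Thrsp with 3, and mouse 10 among cold mice at Thrb with 0. In these groups of mice 8, 4 and 10 the other 3 mice were tied, so the ratio was at its maximum whatever the gap and the chance rate above does not apply. Mice 7 and 10 had the shortest H3K27ac lists, 3224 and 14511 peaks.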

How the results depend on the processing

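Read depth is unknown and list lengths differed between mice, so absence of a peak limits these comparisons, above all for H3K4me1 and H3K27me3. Of 393 recomputed counts of separated genes or regions 370 stayed as in the main analysis. Of 231 recomputed differences 199 kept direction and call, 1 lost the separation, 10 gained it and 21 changed sign, none of the last separated in the main analysis. With summits required within 500 bp, the count of genes separated by diet in H3K4me3 rank fell from 1 to 0, since the Dio2 summit of mouse 11 lay farther out and the gene was then not tested. It was 0 by fold enrichment, where 3.29% of all genes separated. With lists cut to the shortest it was 2, Dio2 and Slc16a10, beside 4.52% of all genes. By fold enrichment the differences at Thrsp changed sign, to 1.94 points by temperature for H3K4me3 and 0.113 between the marks. For the number of distal H3K27ac peaks at Thra, the cold difference was −0.50 from cut lists and −3.16 per 10000 peaks.

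Without mice 7 and 10, 2 genes separated by diet in distal number (Dio2 and Thrsp, beside 13.3% of all genes), 2 by diet in H3K4me3 rank (Dio2 and Thrsp, beside 15.5%), 2 by temperature in H3K4me3 rank (Thrb and Slc16a10, beside 21.5%) and 1 by diet in H3K27ac width (Dio2, beside 13.7%). Then 2 H3K4me3, 1 H3K4me1 and 1 H3K27ac distal regions separated by temperature, beside 2.94%, 0.435% and 2.59% of all, and 1 H3K27ac region by diet, beside 4.38%. The Thrsp H3K27ac difference by diet became 2.50, and the Dio2 difference between marks −10.2. The cause was not tested, and these groups were smaller. With regions near other start sites included, a choice made after seeing the data, 1 H3K27ac region separated by diet.

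With 1 mouse left out at a time, the separated genes numbered 1 to 3 by diet and 0 to 2 by temperature in H3K4me3 rank, where 5.6% to 14.8% and 6.73% to 11.5% of all genes separated. They numbered 0 to 1 by temperature in H3K27ac rank (3.84% to 7.88% of all) and in distal number (1.17% to 6.71%), and 1 to 2 by diet in H3K4me3 width (2.1% to 16.7%). Separated distal H3K4me3 regions numbered 0 to 2 by temperature (0.332% to 2.76% of all) and 0 to 1 by diet (0.929% to 6.28%). For H3K27ac they numbered 0 to 1 by either factor (0.408% to 2.58% by temperature and 0.093% to 0.948% by diet). For H3K4me1 they also numbered 0 to 1 by either (0% to 0.435% and 0.124% to 5.76%). For H3K27me3 they numbered 0 (0% to 0.949% and 0.0619% to 0.246%). Differences that changed sign ranged from −8.04 to 15.7 for Dio2 H3K27ac by diet, −17.1 to 0.304 for Thrsp H3K27ac by diet, −1.99 to 14.5 for Dio2 H3K4me3 by temperature, −5.71 to 1.76 for Thrsp H3K4me3 by temperature, and −7.83 to 4.90 (Dio2) and −6.35 to 3.55 (Thrsp) between marks. With the mouse as replicate block, the paired difference between marks at Dio2 was 1.70 (exact sign-flip permutation p = 0.953) and that at Thrsp had p = 1, so the block changed no call, with 0 of the 2 genes past the threshold.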
